A study of Mus musculus with 8 samples.

Results

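To determine how the genes that carry calcium, phosphate and magnesium across the gut wall behave when RANK is lost in lactation, 10 named genes were followed in 3′ mRNA-seq counts of mouse intestinal epithelial cells. They were taken by symbol from a table of 54532 genes: Vdr, Rxra, Trpv6, S100g, Atp2b1, Cyp24a1, Slc34a2, Slc20a1, Trpm6 and Cnnm4. Of these, 7 had enough counts to be tested and 3 (Trpv6, Cyp24a1 and Trpm6) did not. Epithelial cells came from the intestine of mice at lactation day 5, with 4 animals labelled WT and 4 labelled Rank-knockout, 1 library each. All mice were lactating females of the C57BL/6J background. Per the study's methods, the knockout is a floxed Rank allele removed by Cre under the Villin promoter, which is active in the intestinal epithelium. The methods also give the controls as littermates. The paper saw no Cre in mammary tissue, and RANK in other tissues was not examined here. Whether the WT animals of these libraries carried Cre or floxed alleles, the gut segment taken and the age of the dams were not given in the sources used here. The preparation was minced tissue dissociated and strained, with no sort for a cell type.

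Calcium crosses the enterocyte in steps. It enters at the brush border through the channel TRPV6, is carried through the cell bound to calbindin-D9k, the product of S100g, and leaves at the basolateral side through the calcium pump PMCA1, the product of Atp2b1. The vitamin D receptor, encoded by Vdr, pairs with the retinoid X receptor alpha, encoded by Rxra, and the pair switches on S100g, Trpv6 and Cyp24a1 when the active hormone is bound. Phosphate enters through the sodium-phosphate cotransporters encoded by Slc34a2 and Slc20a1, and magnesium enters through the channel TRPM6 and leaves with the help of CNNM4. These steps are drawn on heavily by a lactating dam, whose milk takes calcium and phosphate from the diet and the skeleton.

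The receptor pair binds hexamers with the general form of AGGTCA, so the 250 bases before the RefSeq start (GRCm38.p6) were read for the members of the list. A window was found for 9 of the 10 genes, 12 windows in all. The sequences of S100g and Trpv6, the classical vitamin D targets of calcium uptake, and of Slc34a2, the other member with a wide spread between libraries, are shown 5′ to 3′ on the strand of the gene. Capitals mark each match, on either strand, to 1 of 8 hexamers: AGGTCA or AGGTGA or AGTTCA or AGTTGA or GGGTCA or GGGTGA or GGTTCA or GGTTGA. A match on the opposite strand reads as its reverse complement, and none of the marked matches overlap.
S100g, chrX:162964600-162964849, minus strand: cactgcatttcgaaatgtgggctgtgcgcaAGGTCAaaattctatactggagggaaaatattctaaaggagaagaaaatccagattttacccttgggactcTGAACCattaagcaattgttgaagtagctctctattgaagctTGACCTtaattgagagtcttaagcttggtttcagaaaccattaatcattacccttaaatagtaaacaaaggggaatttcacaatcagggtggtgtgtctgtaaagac
Trpv6, chr6:41636406-41636655, minus strand: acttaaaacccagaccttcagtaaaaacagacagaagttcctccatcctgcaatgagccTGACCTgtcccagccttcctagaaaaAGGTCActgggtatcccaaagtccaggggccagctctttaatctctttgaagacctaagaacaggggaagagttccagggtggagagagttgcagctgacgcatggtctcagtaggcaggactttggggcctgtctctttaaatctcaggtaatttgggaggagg
Slc34a2, chr5:53049103-53049352, plus strand: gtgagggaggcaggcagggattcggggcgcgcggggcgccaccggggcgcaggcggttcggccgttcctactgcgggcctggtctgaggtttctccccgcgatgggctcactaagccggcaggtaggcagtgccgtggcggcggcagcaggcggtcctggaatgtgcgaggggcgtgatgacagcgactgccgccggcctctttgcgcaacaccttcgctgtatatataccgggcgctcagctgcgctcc

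The S100g window held 3 matches, an AGGTCA 220 bases before the start on the strand of the gene, and a GGTTCA at 149 bases and an AGGTCA at 107 bases on the opposite strand. The Trpv6 window held 2, AGGTCA at 191 bases on the opposite strand and at 165 bases on the strand of the gene, and the Slc34a2 window held 0. The RefSeq start of Slc34a2 lies inside the span that GENCODE M21 gives this gene. Such hexamers are common: 60.3% of 32851 windows of the same length held at least 1, 26.1% held 2 or more, 8.93% held 3 or more, and 14.0% held AGGTCA itself. A pair in the same direction with 3 bases between, the arrangement the receptor pair prefers, was in 0 of the 12 windows of these genes and in 0.222% of all windows. These letters describe the windows and say nothing about binding.

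The libraries held 1530781 to 4335653 counts, with 3 of the 4 WT libraries at the low end, so low genes are measured less precisely in WT. Values are CPM, counts per 1000000 counts of the library, with library sizes adjusted by the trimmed mean of M values (TMM), and because the kit tags a transcript near its 3′ end once, CPM compares levels between genes without a length correction. Of 9855 genes tested with edgeR's quasi-likelihood test, 15.8% passed an adjusted p under 0.05 with a higher level in Rank-knockout and 14.6% with a lower level, and the median log2 fold change was 0.02. Tnfrsf11a, the gene of RANK, had 76.8, 49.3, 41.3 and 73.3 CPM in the 4 WT libraries and 27.0, 41.7, 35.2 and 46.8 CPM in the 4 Rank-knockout libraries, and its log2 fold change of -0.67 passed the test (edgeR adjusted p = 0.0322). It no longer passed with library totals (0.113), without the 50 most abundant genes in the library size (0.0764) and in 4 of the 8 fits that left out 1 library (WT replicates 1 and 4, Rank-knockout replicates 1 and 3; 0.0746 to 0.104). Tags mark the 3′ end of a transcript and may lie outside the floxed region, so this value is no check of the labels. Epithelial markers were present in every library, at a summed 9168 to 10090 CPM in WT and 6949 to 8618 CPM in Rank-knockout, while the lists of stromal and muscle, endothelial and myeloid markers were low but present, at sums of 1.78 to 10.8, 0.677 to 4.76 and 1.35 to 9.51 CPM over all libraries. In each of those lists 1 marker (Lum of 9, Cdh5 of 3 and Adgre1 of 3) had 0 counts throughout.

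Marker genes of several epithelial cell types moved with genotype. All 12 of 12 villus enterocyte markers fell (median log2 fold change -1.01), and their summed level was 15370 to 22990 CPM in WT and 8227 to 12620 CPM in Rank-knockout. All 14 tested markers of cycling crypt cells out of 15 listed rose (median 1.23), from a sum of 567 to 880 CPM to 1446 to 2295 CPM. Of 5 Paneth cell markers 3 rose (median of the 5 1.21; summed 1929 to 4104 CPM in WT and 2641 to 8379 CPM in Rank-knockout), and of 6 goblet cell markers 3 fell and 2 rose (summed 4220 to 5015 and 3086 to 3896 CPM). Markers of plasma cells summed to 54.2 to 152 CPM in WT and 9.81 to 54.3 CPM in Rank-knockout, with 1 of 2 tested of 5 listed lower, and markers of T cells summed to 171 to 262 CPM and 116 to 186 CPM. Trpv6, S100g, Atp2b1 and Slc34a2 serve the absorptive cells of the villus, and in bulk samples fewer cells of a type and less RNA per cell cannot be told apart. The part of this shift in the values below was not tested beyond the rescaling to villus markers given with them.

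Of the 7 tested members, 3 were lower in Rank-knockout by edgeR (Vdr, Rxra and Atp2b1), and DESeq2 called Slc34a2 besides. None was higher, with 0 by edgeR, DESeq2 or limma-voom, against the 14.6% and 15.8% of all tested genes that edgeR called. The median log2 fold change of the 7 was -0.59, and all of them had a negative value, so none was higher at an unadjusted p either. The same 3 genes had no overlap between the genotypes, which was the case in the lower direction for 14.3% of tested genes. These directions are relative to the TMM scale. A scale set by the 12 villus enterocyte markers raises the median of all genes from 0.02 to 1.03 (log2), and the sign of these 3 turned on it.

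**Figure D1:**
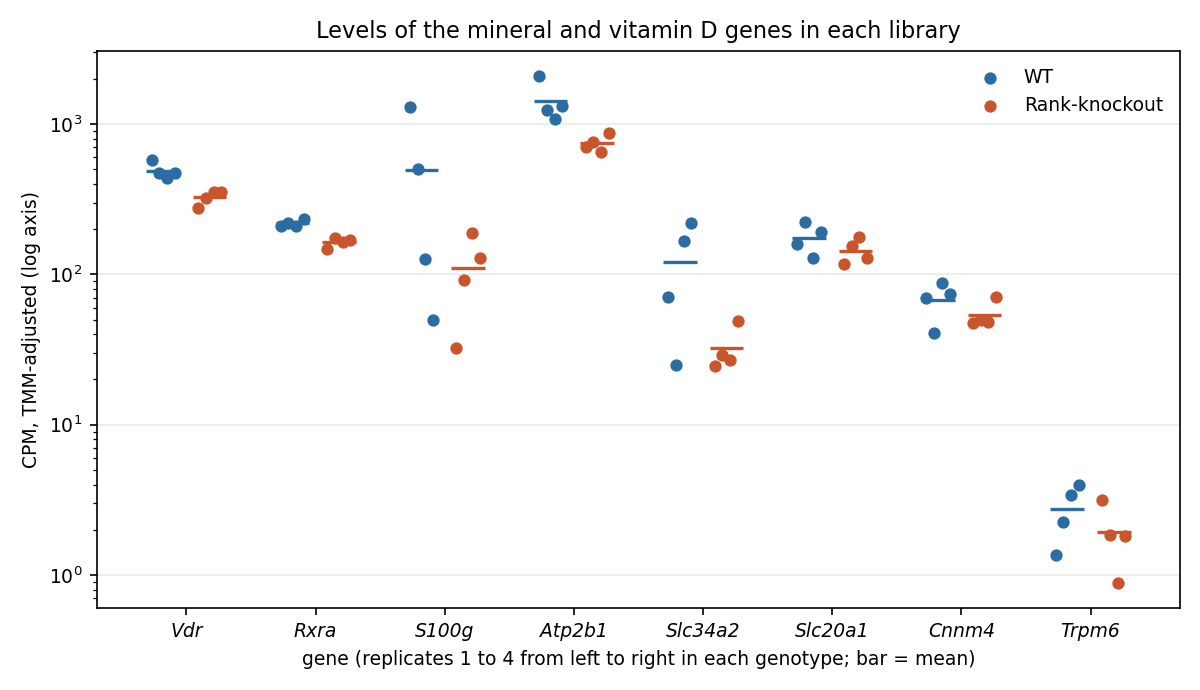
CPM on TMM-adjusted library sizes (log axis) for the 8 members with counts in every library, with replicates 1 to 4 from left to right in each genotype and a bar at the mean. Vdr, Rxra and Atp2b1 separate the genotypes on this scale (a scale set by villus markers, which shifts all genes upward, turns their sign), while S100g runs from 49.5 to 1299 CPM within WT alone.

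Vdr (ENSMUSG00000022479, GRCm38 chr15:97854425-97910630, minus strand), the nuclear receptor through which the active hormone works, had 577, 475, 441 and 471 CPM in WT replicates 1 to 4 and 277, 324, 354 and 353 CPM in Rank-knockout replicates 1 to 4. Every WT library was above every Rank-knockout library. The mean went from 491 ± 59.3 to 327 ± 35.9 CPM (SD, n = 4 each), 66.6% of WT, and the log2 fold change of -0.59 (SE 0.14) passed the test (edgeR adjusted p = 0.0061). With library totals it was -0.39 and still passed (edgeR adjusted p = 0.0395).

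Rxra (ENSMUSG00000015846, GRCm38 chr2:27676440-27762957, plus strand), the partner receptor that Vdr shares with other nuclear receptors, had 209, 220.5, 211 and 234 CPM in WT and 148.5, 174, 163 and 170.5 CPM in Rank-knockout. The genotypes again did not overlap, and the spread was among the narrowest of all genes: the coefficient of variation over WT libraries was 5.29%, which 9610 of 9855 tested genes exceeded. Rxra fell by 0.42 on the log2 scale (SE 0.13; edgeR adjusted p = 0.021). This call was lost with library totals (-0.22, edgeR adjusted p = 0.175), without the 50 most abundant genes in the library size (-0.29, 0.0861), with no filter on low counts (-0.38, 0.102), in thinned libraries (-0.36, 0.0592), and when any of 3 libraries was left out, which were WT replicate 4 (-0.41, 0.0541) and, of Rank-knockout, replicate 1 (-0.37, 0.0561) and replicate 3 (-0.41, 0.0552).

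Among the calcium genes, the entry channel was at the edge of detection. The buffer was the most variable of the tested members, and the pump was the most abundant. Trpv6 (ENSMUSG00000029868, GRCm38 chr6:41620624-41636405, minus strand) had 5 counts in WT replicate 1 and 0 counts in the other 7 libraries. The 5 counts are a raw 3.27 CPM of that library, with an exact 95% binomial interval of 1.06 to 7.62, and 0 counts over the 4 Rank-knockout libraries allow up to 0.239 CPM there. Intervals and floors of this kind cover counting error only. The gene was not tested. With no filter, where 6.66% of genes were called lower, edgeR gave it an adjusted p of 0.0491 that rests on the 1 library with counts, and DESeq2 gave it no adjusted p.

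S100g (ENSMUSG00000040808, GRCm38 chrX:162961992-162964599, minus strand) was counted 1911, 1996, 186 and 75 times over WT replicates 1 to 4 and 153, 245, 423 and 493 times over the Rank-knockout libraries. Scaled to CPM these were 1299, 502, 126 and 49.5 in WT and 32.2, 91.2, 189 and 129 in Rank-knockout. The 2 highest values are both WT, but WT replicates 3 and 4 lie within the range of the Rank-knockout libraries, so the genotypes overlap. The highest WT library was 26.2 times the lowest, and the highest Rank-knockout library was 5.86 times the lowest. The means were 494 ± 572 and 110 ± 65.7 CPM (SD, n = 4 each). The log2 fold change of -2.18 was lower than in all but 2 tested genes, yet with an SE of 1.10 it did not pass the test (edgeR adjusted p = 0.188). Without WT replicate 1 it was -1.11 (adjusted p = 0.45).

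Atp2b1 (ENSMUSG00000019943, GRCm38 chr10:98914406-99026143, plus strand), the plasma membrane pump that moves calcium out towards the blood, had 2088, 1247, 1081 and 1315 CPM in WT and 708, 758, 649 and 870 CPM in Rank-knockout. WT replicate 1 was the highest library, as it was for Vdr and S100g, and every WT library was above every Rank-knockout library. The mean fell from 1433 ± 448 to 747 ± 93.5 CPM (SD, n = 4 each), which is -0.94 on the log2 scale (SE 0.19; edgeR adjusted p = 0.00214). Over all libraries left out in turn, the log2 fold change ran from -1.07 to -0.72 and the call held in each fit.

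Cyp24a1 (ENSMUSG00000038567, GRCm38 chr2:170482708-170497145, minus strand), the enzyme that breaks down the active hormone and is strongly induced by it, had 0 counts in all 8 libraries. With 21652691 counts in all, this allows a level of up to 0.139 CPM, or 0.33 CPM over the WT libraries and 0.239 CPM over the Rank-knockout libraries. No difference could be looked for at this depth.

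The phosphate cotransporters differed in how they spread. Slc34a2 (ENSMUSG00000029188, GRCm38 chr5:53038081-53071664, plus strand), the regulated brush border cotransporter NaPi-IIb, had 70.7, 25.1, 167 and 219.9 CPM in WT and 24.4, 29.0, 26.8 and 48.6 CPM in Rank-knockout. WT replicates 1, 3 and 4 were above every Rank-knockout library, and WT replicate 2 lay among them. The log2 fold change was -1.87 (SE 0.68) and did not pass edgeR's threshold (adjusted p = 0.083). DESeq2 gave -1.91 and called it (adjusted p = 0.0194), where 12.6% of genes were called lower, and without WT replicate 2 edgeR also called it (-2.24, adjusted p = 0.00793). The value was smaller and uncalled with limma-voom (-1.40, adjusted p = 0.218), without WT replicate 4 (-1.41, edgeR adjusted p = 0.191) and without WT replicate 3 (-1.66, 0.163).

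Slc20a1 (ENSMUSG00000027397, GRCm38 chr2:129198764-129211616, plus strand), a widely expressed cotransporter known as Pit-1, had 159.7, 224, 129 and 191.5 CPM in WT and 116.5, 154.5, 177 and 128 CPM in Rank-knockout. The genotypes overlapped, and the log2 fold change of -0.30 (SE 0.18) did not pass edgeR's test (adjusted p = 0.215). Without WT replicate 2, the highest library, it was -0.16 (adjusted p = 0.498). With library totals Slc20a1 and the magnesium exporter gene Cnnm4 were both at -0.11 (adjusted p = 0.671 and 0.734), and without the 50 most abundant genes in the library size both at -0.17 (0.48 and 0.574).

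Neither magnesium gene of the 10 passed the test. Trpm6 (ENSMUSG00000024727, GRCm38 chr19:18749983-18892511, plus strand), the entry channel, had 2, 9, 5 and 6 counts in WT and 15, 5, 2 and 7 counts in Rank-knockout, or 1.36 to 3.96 CPM and 0.892 to 3.16 CPM. It was too low for the filter, and with no filter its log2 fold change was -0.33 with an edgeR adjusted p of 0.735. Cnnm4 (ENSMUSG00000037408, GRCm38 chr1:36471620-36508764, plus strand), a basolateral magnesium exporter, had 69.3, 41.0, 87.4 and 74.0 CPM in WT and 47.2, 49.9, 48.2 and 70.9 CPM in Rank-knockout. WT replicate 2 was the lowest library of all 8 and Rank-knockout replicate 4 lay among the WT values. The log2 fold change of -0.30 (SE 0.22) did not pass (edgeR adjusted p = 0.309), and without WT replicate 2 it was -0.51 and passed (adjusted p = 0.0382), where 15.8% of genes were called lower. Without Rank-knockout replicate 4 it was -0.46 (adjusted p = 0.114), without WT replicate 3 it was -0.16 (adjusted p = 0.627), and with counts thinned to the shallowest library it was -0.17 (adjusted p = 0.699).

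By mean level in WT the order was Atp2b1 (1433 CPM), S100g (494), Vdr (491), Rxra (219), Slc20a1 (176), Slc34a2 (121), Cnnm4 (67.9), Trpm6 (2.74), Trpv6 and Cyp24a1. Of these neighbours, Vdr and Rxra did not overlap over the 4 libraries, nor did Cnnm4 and Trpm6, while each other neighbouring pair from Atp2b1 to Cnnm4 overlapped. In Rank-knockout the order was Atp2b1 (747 CPM), Vdr (327), Rxra (164), Slc20a1 (144), S100g (110), Cnnm4 (54.0), Slc34a2 (32.2) and Trpm6 (1.94). There Atp2b1, Vdr and Rxra stood clear of one another and the pairs from Rxra down to Slc34a2 overlapped. S100g thus went from the second place to the fifth, a move within its own spread.

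The members also differed in how closely animals of 1 genotype resembled each other. Over all tested genes the median coefficient of variation was 20.5% in WT and 17.3% in Rank-knockout. S100g reached 116% in WT, and 2 of 9855 genes exceeded it. Slc34a2 reached 73.5%, exceeded by 77 genes. Atp2b1 (31.3%), Cnnm4 (28.8%) and Slc20a1 (23.3%) were nearer the middle, and Vdr (12.1%) and Rxra (5.29%) were below it. In Rank-knockout the coefficient of S100g was 59.6% and that of Slc34a2 34.5%, again the 2 largest of the 7, so the wide spread was not a property of WT libraries alone. Every S100g value rests on 75 counts or more.

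**Figure D2:**
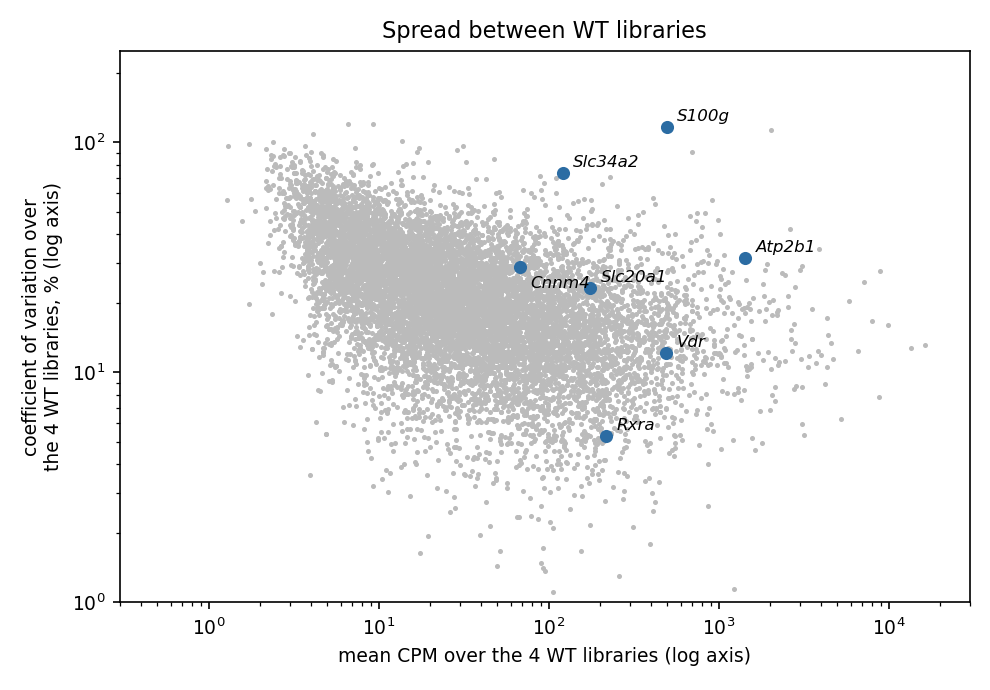
Coefficient of variation over the 4 WT libraries in percent against mean CPM in WT, both on log axes, with all 9855 tested genes in grey and the 7 tested members in blue. S100g and Slc34a2 lie at the upper edge for genes of their level, and Rxra near the lower edge.

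The libraries that set these spreads were not the same for both genes. For S100g the WT order was replicate 1, 2, 3 and 4 from high to low, and the single library with Trpv6 counts was the one highest in S100g. For Slc34a2 the WT order was replicate 4, 3, 1 and 2, so the WT libraries low in S100g were high in Slc34a2. This did not hold in Rank-knockout, where replicate 1 was the lowest for both genes and replicate 4 was high for both. The 8 listed markers of the proximal small intestine, 1 of 7 tested of which was lower in Rank-knockout, did not share 1 order of libraries either, and all of them are given here, named after their values were seen. Slc40a1, the iron exporter ferroportin, had 105, 41.0, 31.8 and 12.5 CPM in WT, the same order as S100g, and Pdx1, a transcription factor of the duodenum, had 39.4, 10.8, 10.8 and 5.94 CPM. Onecut2 (431 to 625 CPM in WT) and Gata4 (31.9 to 42.1 CPM), both transcription factors, were also highest in WT replicate 1, with the other 3 libraries close together. Cybrd1 was too low to test.

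The other 3 markers were highest elsewhere. Lct, the brush border lactase, had 2013, 1362, 1625 and 2661 CPM in WT and Bco1, which cleaves carotenoids, had 21.8, 13.8, 13.6 and 76.6 CPM, both highest in replicate 4, as Slc34a2 was. Fabp1, a fatty acid carrier, was highest in replicate 3 (5332 CPM). In Rank-knockout the 7 tested markers again did not share 1 order. Slc40a1 (27.0, 24.6, 9.81 and 25.4 CPM), Pdx1 (9.90, 8.93, 2.68 and 9.41 CPM) and Onecut2 (472, 416, 354 and 542 CPM) were lowest in replicate 3, where S100g was highest. Bco1 (3.37, 9.68, 36.1 and 2.88 CPM) was highest there. Gata4 was highest in replicate 2 (38.3 CPM) and next in replicate 3 (34.8 CPM), and Lct was at 844 CPM in replicate 3 and 845 CPM in replicate 4, its highest. Fabp1 was highest in replicate 4 (3334 CPM), where Slc34a2 was highest. Of 5 ileal markers Fgf15 had 0 counts in every library, Fabp6 had 0.66 to 2.26 CPM in WT and 3.35 to 9.69 CPM in Rank-knockout, too low to test, and the summed level of 545 to 585 CPM in WT and 240 to 482 CPM in Rank-knockout came mostly from Slc51a and Slc51b. The part of the gut position of each sample in the S100g and Slc34a2 values was not tested.

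**Figure D3:**
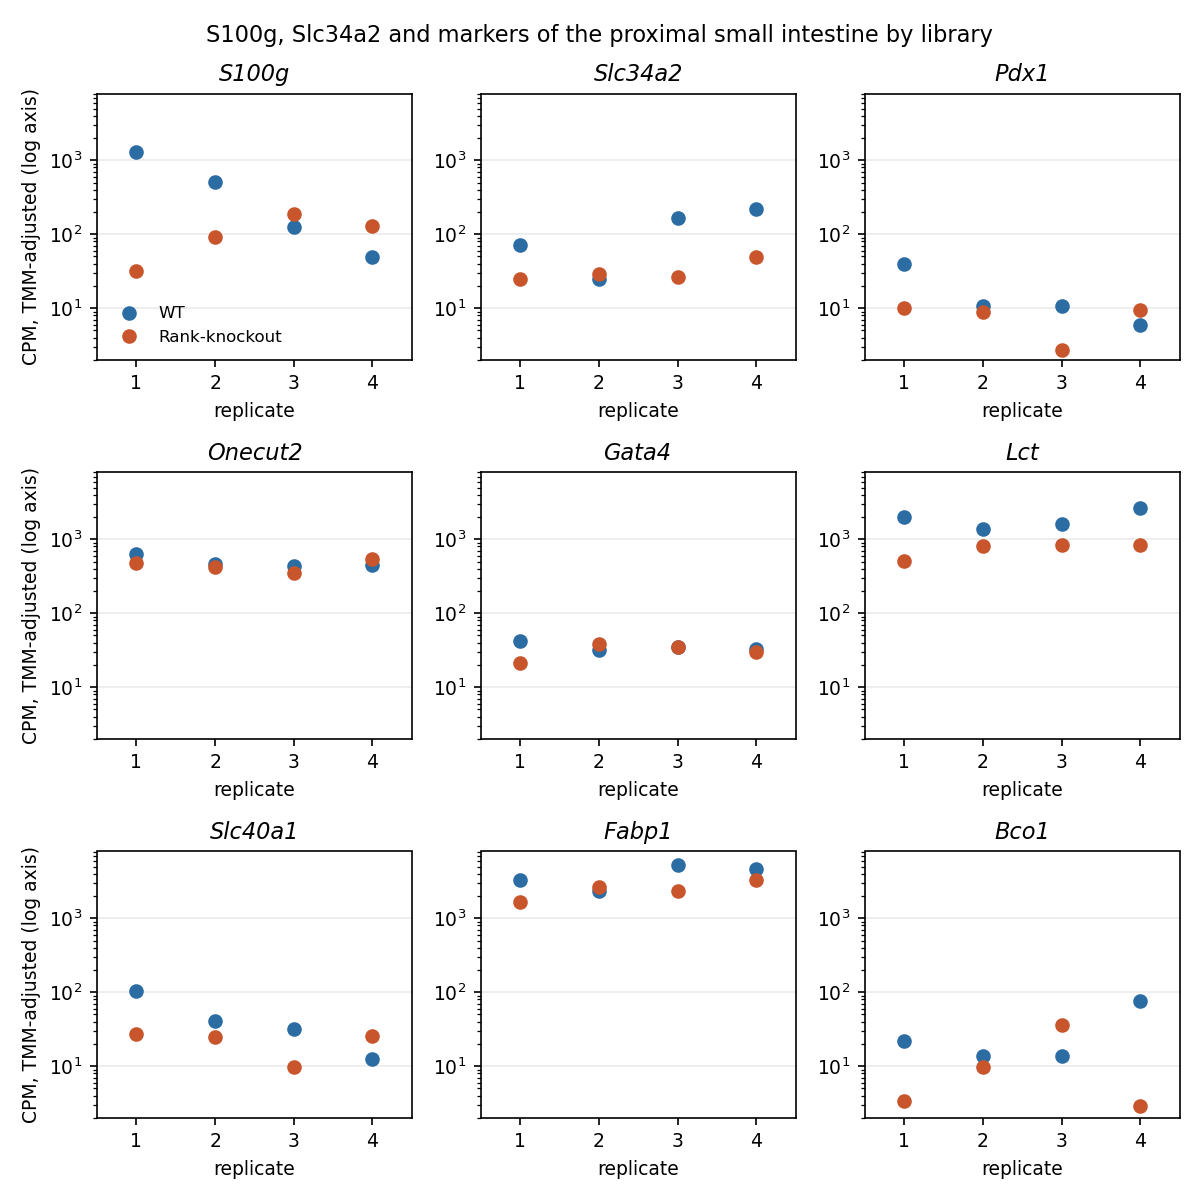
CPM (log axis) of S100g, Slc34a2 and the 7 tested markers of the proximal small intestine in replicates 1 to 4 of WT and Rank-knockout, where equal replicate numbers are not known to pair animals. In WT, S100g, Slc40a1, Pdx1, Onecut2 and Gata4 are highest in replicate 1, Slc34a2, Lct and Bco1 in replicate 4 and Fabp1 in replicate 3.

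A wider set of 51 genes of vitamin D, calcium, phosphate and magnesium handling was read beside the 10. Of these, 30 were tested, 15 passed edgeR's test with a lower level in Rank-knockout and 1 with a higher level, against 14.6% and 15.8% of all tested genes, and their median log2 fold change was -0.21. Of the 21 not tested, 7 had 0 counts in every library. With library totals, where 26.0% of all genes were called higher and 8.72% lower, the counts were 8 lower and 3 higher, and when the 50 most abundant genes were left out of the library size (22.0% and 10.3%) they were 9 and 2.

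Both tested genes of vitamin D uptake and activation fell. Cubn, the endocytic receptor cubilin, which takes up vitamin D carrier protein in the kidney and the intrinsic factor and vitamin B12 complex in the ileum, had 142, 112, 91.5 and 198 CPM in WT and 32.4, 46.9, 43.3 and 39.2 CPM in Rank-knockout, with no overlap. The log2 fold change of -1.75 (SE 0.22) had an edgeR adjusted p of 0.000149 and was the largest fall by value among the called genes of both lists. Cyp27a1, a mitochondrial sterol hydroxylase, fell by 1.03 on the log2 scale (SE 0.25; edgeR adjusted p = 0.00565), with WT libraries from 19.0 to 39.0 CPM and Rank-knockout libraries from 11.8 to 19.1 CPM. Cyp2r1, Lrp2 and Cyp27b1 were too low to test, the last pair with 0 counts in every library.

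All 4 other vitamin D targets listed fell, none with overlap between the genotypes. Cdkn1a, the cell cycle inhibitor p21, had 230, 207, 299 and 244 CPM in WT and 128, 145, 128.5 and 144 CPM in Rank-knockout, and fell by 0.84 on the log2 scale (SE 0.14; edgeR adjusted p = 0.000726). Slc30a10, an efflux transporter of manganese and zinc, had a log2 fold change of -1.11 (SE 0.21; adjusted p = 0.00147). Abcb1a, the drug efflux pump P-glycoprotein, had -1.07 (SE 0.25; adjusted p = 0.0074). Cyp3a11 had -1.54 (SE 0.47; adjusted p = 0.0425), with WT libraries from 390.2 to 1119 CPM and Rank-knockout libraries from 92.2 to 324 CPM. Its reads may be shared with close relatives in the same P450 family, which makes the value uncertain, and its call was lost with library totals (-1.36, adjusted p = 0.059) and in 5 of the 8 fits that left out 1 library. These genes answer to other signals as well, and their place on the list does not show that vitamin D moved them.

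Of the 8 tested partners and coregulators of the receptor, 2 were lower, with a median log2 fold change of 0.14. Ncoa2, a coactivator, went from 23.9 to 35.2 CPM in WT to 13.8 to 22.0 CPM in Rank-knockout (-0.76, SE 0.21; edgeR adjusted p = 0.0127), and narrowly missed with library totals (-0.56, adjusted p = 0.0513). Ncor1, a corepressor, went from 450.2 to 516 CPM to 350.2 to 397 CPM (-0.38, SE 0.13; adjusted p = 0.0349), and this call was lost with library totals (-0.18, adjusted p = 0.263), without the 50 most abundant genes in the library size (0.136), with no filter (0.148) and in 6 of the 8 fits that left out 1 library (0.0511 to 0.0914).

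Among 8 tested genes of calcium transport and buffering, 4 were lower. S100a10 (-0.51, SE 0.17; edgeR adjusted p = 0.0369) and Anxa2 (-0.61, SE 0.19; adjusted p = 0.0254), whose proteins form a complex at the membrane that binds TRPV channels, both fell, as did Cldn15, a sodium-selective tight junction claudin (-0.43, SE 0.15; adjusted p = 0.0369). These 3 calls were lost with library totals, at log2 fold changes from -0.41 to -0.24, and without the 50 most abundant genes in the library size (-0.48 to -0.31). Leaving out 1 library ended the call of S100a10 in 6 of 8 fits (adjusted p up to 0.141, at -0.33 without WT replicate 3), of Cldn15 in 5 (up to 0.0918) and of Anxa2 in 4 (up to 0.0679), and limma-voom did not call S100a10 (0.0526). Cldn2, a cation-permeable claudin of the crypt, is named here after its values were seen. It had 43.5, 81.7, 47.4 and 19.2 CPM in WT and 175, 88.2, 98.1 and 78.7 CPM in Rank-knockout. The log2 fold change of 1.15 (SE 0.41) did not pass edgeR's test (adjusted p = 0.0655). Cldn2 passed without WT replicate 2 (1.58, adjusted p = 0.0135), with library totals (1.36, 0.0323), without the 50 most abundant genes in the library size (1.29, 0.0402) and in thinned libraries (1.34, 0.0452). No other fit that left out 1 library called it (0.0695 to 0.136). Neither did RLE (0.0693), no filter (0.174), DESeq2 (0.0627) or limma-voom (0.0638). Trpv5 and Calb1, the renal counterparts of Trpv6 and S100g, had 0 counts in every library.

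The exporter of phosphate, Xpr1, had 97.9, 83.2, 87.4 and 114 CPM in WT and 47.4, 60.3, 47.3 and 65.4 CPM in Rank-knockout, with no overlap (-0.79, SE 0.16; edgeR adjusted p = 0.00239). The other tested phosphate gene of the wider set did not pass. For magnesium, 2 of 6 tested genes were lower and 1 was higher. Slc41a2, a magnesium transporter, had 294, 398, 291 and 296.5 CPM in WT and 157, 157.5, 154 and 136.5 CPM in Rank-knockout, with no overlap (-1.08, SE 0.14; adjusted p = 0.000188). Cnnm2, a relative of Cnnm4, also fell (-1.12, SE 0.27; adjusted p = 0.00619), from 15.6 to 25.1 CPM to 6.28 to 13.4 CPM. Mrs2, the magnesium channel of mitochondria, was the 1 gene that rose, from 12.2 to 16.3 CPM to 17.8 to 25.1 CPM (0.58, SE 0.21; adjusted p = 0.0488). Each of the 8 fits that left out 1 library ended that call, with adjusted p from 0.0502 to 0.139. None of the 6 listed genes of mineral sensing and hormones could be tested, and Casr and Kl had 0 counts in every library.

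The fit was repeated with the 12 villus enterocyte markers setting the library size. Over all tested genes, that scale moved the median log2 fold change from 0.02 to 1.03 and called 76.8% of genes higher and 0.173% lower. Vdr was then at 0.42 on the log2 scale (SE 0.22; edgeR adjusted p = 0.0945) and Atp2b1 0.064 (adjusted p = 0.813). Rxra (0.59, adjusted p = 0.0183), Slc20a1 (0.69, 0.0231) and Cnnm4 (0.72, 0.00799) were called higher, 3 of 7 members against the 76.8% of all genes. S100g (-1.26, adjusted p = 0.32) and Slc34a2 (-0.79, 0.079) kept a negative value. Of the wider set, Cubn stayed lower (-0.71, adjusted p = 0.0126) as the single called fall, and 19 of 30 were higher. Since the scale moved the median of all genes, the change of sign says nothing about these genes in particular. All 7 members lay below the median of all genes on both scales. The change of scale moved these genes nearly as much as the median, so the villus marker scale adds no separate result here.

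**Figure D4:**
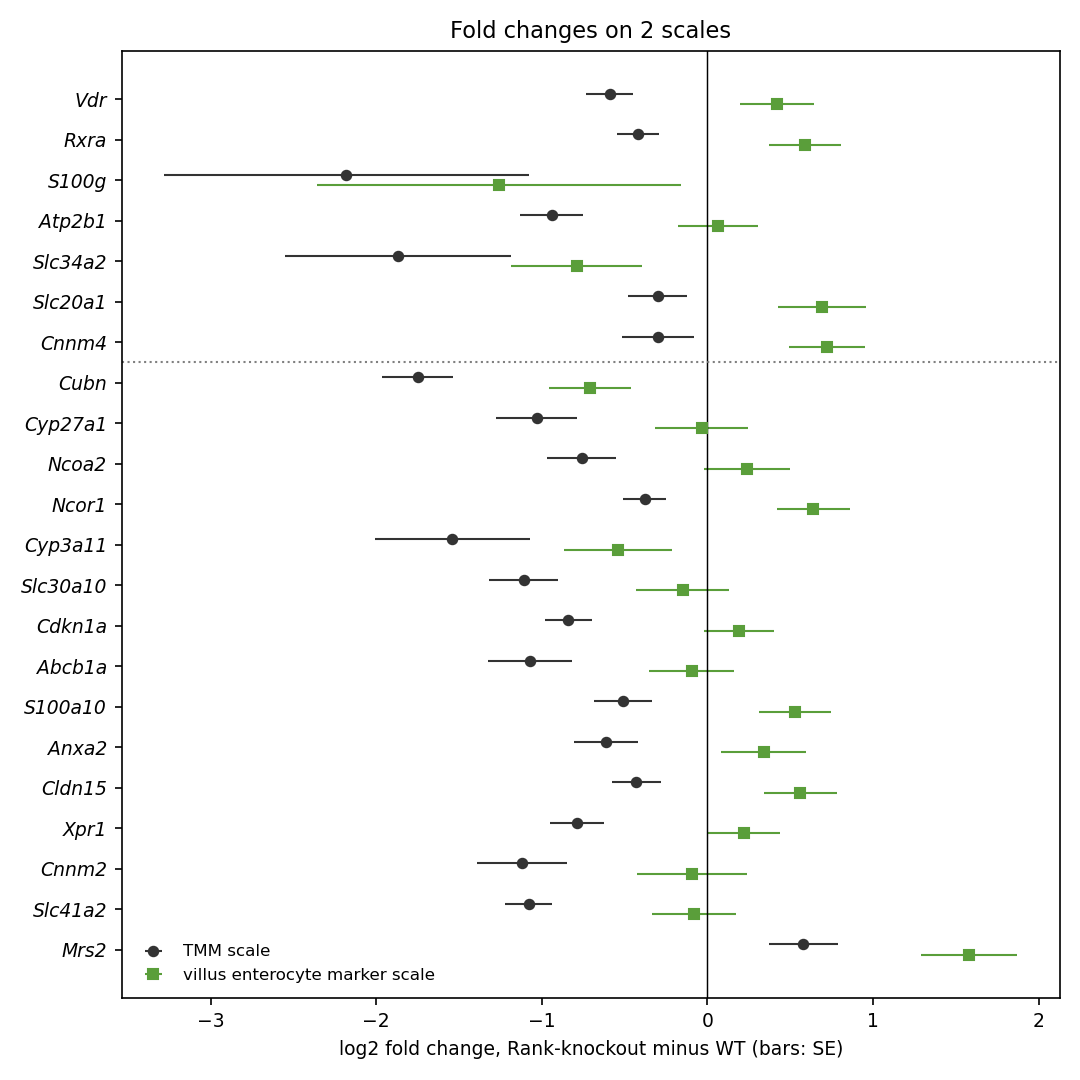
Log2 fold change (Rank-knockout minus WT) with its SE on the TMM scale (black circles) and on the scale of the 12 villus enterocyte markers (green squares), with the 7 tested members above the dotted line and 15 of the 16 called genes of the wider set below it. Vdr moves from -0.59 to 0.42 and Atp2b1 from -0.94 to 0.064, while S100g, Slc34a2 and Cubn are negative on both.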

How the data were processed

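Epithelial cells from the intestine of 4 WT and 4 Rank-knockout mice were profiled with QuantSeq 3′ mRNA-seq, single reads. The authors trimmed reads with BBDuk 38.06, removed ribosomal, mitochondrial, phiX and adapter reads with bowtie2 2.3.4.1, aligned to GRCm38 with STAR 2.6.0c and counted reads per gene, strand-specifically, with featureCounts (subread 1.6.2; Ensembl release 94). The deposited values are raw counts. No molecular identifiers are mentioned, so PCR copies count as reads. The authors' own test was DESeq2.

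Symbols were matched by GENCODE M21 for 54409 of 54532 genes, 33764 of which had no count. The 9855 genes that passed filterByExpr were tested with edgeR 4.0.16 (R 4.3.3; robust quasi-likelihood F-test, TMM, genotype as the single term), adjusted by Benjamini-Hochberg over all of them, threshold 0.05. SE came from the F statistic. The edgeR fit was also run on simulated counts, with the outcome not given here. The 18 alternatives were RLE, library totals, the 50 most abundant genes left out of library sizes, the scale of 12 villus markers, no filter, a floor of 5 on mean CPM, DESeq2 1.42.0, voom (limma 3.58.1), thinning to 1530781 counts, the replicate block and each library left out. The p-values measure the spread between these libraries, 1 per labelled mouse. No pair of libraries agreed within sampling noise (chi-square per degree of freedom 3.992 to 24.37 within genotypes). Promoter windows came from RefSeq.

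The members and the lists were chosen with earlier results of these data known. The text names all 10 members, Tnfrsf11a, each gene of the wider list past the threshold, and, in each role group, the tested gene with the smallest p. Of the wider list, 1 gene that this rule selects is not reported here. Marker genes are given as lists. The proximal and ileal markers, Cldn2 and Ncoa3 were named after their values were seen.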

Additional observations from a re-analysis of the deposited data

Results flagged for a closer look

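In sets of 4 libraries, a highest or lowest library that stood apart from the other 3 by Dixon's criterion at the 95% level was found in 16 of 128 sets examined, where chance gives about 1 in 20, or 6.4. Among the members, Trpv6 in WT replicate 1 (3.40 CPM, the others 0) and Cnnm4 in Rank-knockout replicate 4 (70.9 CPM, the others 47.2 to 49.9) stood apart. In the wider set these were Ncoa3 in WT replicate 4 (27.1 CPM, the others 15.8 to 17.7), Ncor1 in Rank-knockout replicate 2 (397 CPM, the others 350.2 to 357), Cldn15 in WT replicate 1 (1256 CPM, the others 1226 to 1231), and Slc41a2 in WT replicate 2 (398 CPM, the others 291 to 296.5) and in Rank-knockout replicate 4 (136.5 CPM, the others 154 to 157.5). The proximal markers did so for Pdx1 in WT replicate 1 (39.4 CPM, the others 5.94 to 10.8) and in Rank-knockout replicate 3 (2.68 CPM, the others 8.93 to 9.90), for Slc40a1 in Rank-knockout replicate 3 (9.81 CPM, the others 24.6 to 27.0), for Onecut2 in WT replicate 1 (625 CPM, the others 431 to 463), for Lct in Rank-knockout replicate 1 (506 CPM, the others 819 to 845) and for Bco1 in WT replicate 4 (76.6 CPM, the others 13.6 to 21.8). The summed goblet markers were low in WT replicate 3 (4220 CPM, the others 4933 to 5015) and the summed endothelial markers in Rank-knockout replicate 3 (1.34 CPM, the others 2.23 to 2.35). WT replicate 2 had 4335653 total counts, the other WT libraries 1530781 to 1616024. S100g and Slc34a2 did not meet the criterion in either genotype.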

How the results depend on the processing

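Vdr and Atp2b1 were lower under every alternative run except the villus marker scale. That scale turned the direction of Vdr (0.42), Rxra (0.59), Atp2b1 (0.064), Slc20a1 (0.69), Cnnm4 (0.72), Ncoa2 (0.24), Ncor1 (0.64), Cdkn1a (0.19), S100a10 (0.53), Anxa2 (0.34), Cldn15 (0.56), Xpr1 (0.22) and Tnfrsf11a (0.32), and gave 3 members higher and 0 lower, and 19 wider genes higher and 1 lower. It moves the median of all genes from 0.02 to 1.03 and the genes named here by nearly as much. Which of them turn direction thus follows mostly from the size of their fall on the TMM scale. Lower members otherwise numbered 2 to 5 with 1 library left out, the 5 without WT replicate 2, and higher members 0. In the wider set, lower genes numbered 10 to 13 with 1 library left out, 8 with library totals and 9 without the 50 most abundant genes. Higher genes there numbered 0 to 1 with 1 library left out, 3 with library totals, 2 without the 50 most abundant genes and 0 with RLE, no filter, DESeq2 or limma-voom.

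The labels do not say whether equal replicate numbers pair the libraries. Correlations of the deviations were 0.0518, 0.154, -0.142 and 0.329 for equal numbers and -0.356 to 0.251 for unequal ones. So few libraries cannot settle whether there was a pairing. With the replicate block 3 members and 14 wider genes were lower and 1 higher, which was Cldn2 (1.23, edgeR adjusted p = 0.0481) and not Mrs2 (0.54, 0.0674), S100g was at -1.35 (edgeR adjusted p = 0.621), Slc34a2 at -1.60 (0.111) and Cyp3a11 at -1.51 (0.229). Trpv6, Trpm6 and Cyp24a1 had too few counts to test, and the part of depth in this was not tested. WT replicate 1 sets the size of the S100g value (-1.11 without it, uncalled with or without). With edgeR Slc34a2 was called without WT replicate 2, and DESeq2 called it with all libraries.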
